A study of Saccharomyces cerevisiae with 10 samples.

Results

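The 10 genes described here encode the parts by which Saccharomyces cerevisiae takes up iron across its surface: FET3, FTR1, FRE1, FRE2, SIT1, ARN1, ARN2, ENB1, FIT2 and FIT3. They were named by gene identifier (YMR058W, YER145C, YLR214W, YKL220C, YEL065W, YHL040C, YHL047C, YOL158C, YOR382W and YOR383C, in this order) and are 10 of the 6600 genes in the expression table. Earlier results of these data were known when they were chosen, so counts of calls among them do not come from a blind choice. Polyadenylated RNA was sequenced from 5 strains labelled S288C, a laboratory strain of yeast, while they fermented supplemented white grape juice in 5 mL cultures. LAB (genotype WT), WY7, WY15 and WY23 are integrants of 4 alleles of MED15, and in the fifth strain MED15 is deleted (genotype med15 deletion). MED15 encodes a subunit of Mediator, the complex that passes signals from DNA-bound activators to RNA polymerase II. Each strain has 2 libraries, described as biological replicates from individual fermentations. All cultures were collected at 35% weight loss, reached at about 37 h by strains with MED15 and at 48 h by the deletion, so the deletion and the longer fermentation cannot be told apart. The labels do not say whether a strain is 1 clone or more.

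Yeast takes up iron by separate routes. In the reductive route, surface reductases such as Fre1 and Fre2 turn ferric into ferrous iron, and a complex of the multicopper ferroxidase Fet3 and the permease Ftr1 carries it into the cell. In the other route, iron enters still bound to siderophores, small iron chelators that this yeast does not make but that other microbes release. The 4 transporters of that route are Arn1 (ferrichrome-type siderophores), Arn2 (triacetylfusarinine C), Sit1 (ferrioxamine B) and Enb1 (enterobactin). Fit2 and Fit3 are mannoproteins of the cell wall that help hold siderophore-bound iron there. The activators Aft1 and Aft2 switch these genes on when iron, or the iron-sulfur clusters made from it, is scarce, and bind promoters at sites around the letters CACCC, preceded by G or A.

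The form GCACCC, called the core here, was searched on either strand of the 300 bases before each start codon in the R64 reference genome of RefSeq. It stood in 7 of the 10 uptake genes (70.0%) and in 243 of 5897 windows of the annotation (4.12%). More than 1 copy stood in ENB1, FIT2 and FIT3, which is 30.0% of the uptake genes, against 0.237% of all windows. The windows of FRE1, FRE2 and ARN2 do not hold these 6 letters. The form ACACCC, searched in the same way after the values were seen, stood once in FRE1 and once in FRE2, in 2 of the 10 genes (20.0%) and in 5.95% of all windows, and ARN2 held neither. The upstream stretches of 5 genes are shown because each holds the core and they take in both genes called higher in the deletion (SIT1 and ENB1) and genes that did not pass (FET3, FIT2 and FIT3). They run 5′ to 3′ on the gene's own strand over 180 bases, ending 121 bases before the start codon, with each core in capitals (GGGTGC is the core read on the other strand). They lie at chrXIII:388522-388701 (plus strand), chrV:27357-27536 (plus strand), chrXV:21432-21611 (minus strand), chrXV:1059231-1059410 (plus strand) and chrXV:1061176-1061355 (minus strand) for FET3, SIT1, ENB1, FIT2 and FIT3.
FET3: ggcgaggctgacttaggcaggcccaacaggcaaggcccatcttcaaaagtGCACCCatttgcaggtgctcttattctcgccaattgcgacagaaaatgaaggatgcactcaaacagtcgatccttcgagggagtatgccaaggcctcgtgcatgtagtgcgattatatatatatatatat
SIT1: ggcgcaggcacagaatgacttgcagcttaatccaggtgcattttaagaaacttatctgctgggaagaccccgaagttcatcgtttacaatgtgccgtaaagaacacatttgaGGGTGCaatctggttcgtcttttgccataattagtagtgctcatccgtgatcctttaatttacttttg
ENB1: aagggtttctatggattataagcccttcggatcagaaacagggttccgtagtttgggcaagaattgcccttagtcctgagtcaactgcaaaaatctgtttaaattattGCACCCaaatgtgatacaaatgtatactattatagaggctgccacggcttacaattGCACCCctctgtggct
FIT2: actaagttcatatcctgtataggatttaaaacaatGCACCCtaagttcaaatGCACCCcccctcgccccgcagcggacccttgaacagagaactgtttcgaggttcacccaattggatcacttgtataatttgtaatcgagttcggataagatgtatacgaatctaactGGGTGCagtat
FIT3: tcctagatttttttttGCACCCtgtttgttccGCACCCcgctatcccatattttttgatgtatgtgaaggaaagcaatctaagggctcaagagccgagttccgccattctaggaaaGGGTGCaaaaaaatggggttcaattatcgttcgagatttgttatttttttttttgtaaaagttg

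In these stretches FET3 and SIT1 hold 1 core each, ENB1 holds 2, and FIT2 and FIT3 hold 3 each. The FIT3 stretch is part of the 508 bases between FIT3 and FRE5, a gene of the reductase family that is read away from it. FIT2 and FIT3 are read towards each other and end 448 bases apart.

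**Figure D1:**
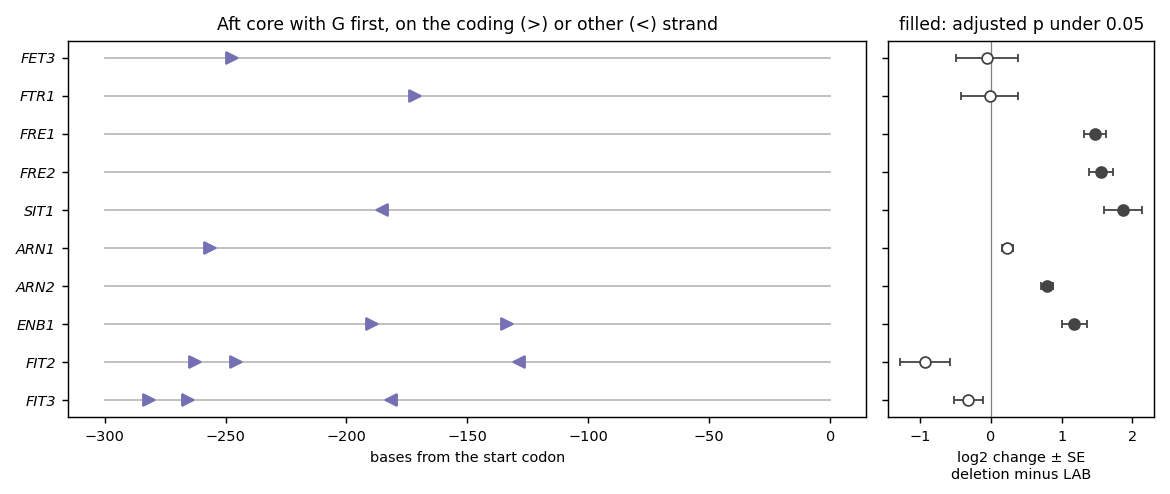
Left, position of each GCACCC core (arrowheads, pointing right for the coding strand) in the 300 bases before the start codon of the 10 genes; right, log2 change with SE for the deletion against LAB, filled where the adjusted p is under 0.05. FRE1, FRE2 and ARN2 have no GCACCC (FRE1 and FRE2 have the form ACACCC, not drawn) and rose, and SIT1 and ENB1, with 1 and 2 cores, rose too, while FIT2 and FIT3, with 3 cores each, did not pass the test. The part of the core in these changes was not tested.

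The libraries hold 22.7 to 29.3 M reads assigned to genes, and 180 to 3942 reads for each uptake gene in each library. MED15 was at 12.1 and 11.9 normalized counts in the deletion libraries and at 8238 to 10958 in the other 8. URA3, a gene of uracil synthesis, had 0 reads in all 8 libraries with MED15 and stood at 3213 and 3214 normalized counts in the deletion. The labels do not mention it, and its part in the results was not tested. The 4 markers of alpha cells summed to 43074 to 61609 normalized counts in the MED15 libraries and to 8937 and 7969 in the deletion, while without MF(ALPHA)1 the other 3 (MF(ALPHA)2, STE3 and SAG1) summed to 4230 to 5049 and to 5682 and 4324. By log2 change against LAB, MF(ALPHA)1 fell by 3.62 (limma adjusted p of 9.3e-06) and MF(ALPHA)2 by 0.55 (adjusted p of 0.032, but 0.33 with equal sums), SAG1 rose by 0.42 (adjusted p of 0.0052) and STE3 did not pass. The 4 markers of a cells summed to 847 to 989 in the MED15 libraries and to 1347 and 1248 in the deletion; BAR1 and STE2 rose, a count of 2 that is 0 after quantile normalization, and MFA1 and MFA2 did not pass. The part of these markers in the results was not tested. Of the 6065 genes tested, 18.9% were called higher and 17.7% lower in the deletion than in LAB, by limma at a Benjamini-Hochberg adjusted p under 0.05 over all genes. Normalized counts are reads divided by 1 scaling factor per library. They sum to 20.8 and 20.9 M in the deletion and to 25.9 to 29.5 M in the MED15 libraries, so scaling all libraries to equal sums raises every change in the deletion and moves the median gene by 0.36 on the log2 scale. These are bulk samples, in which fewer cells of a kind and less RNA per cell cannot be told apart.

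In the deletion 5 of the 10 uptake genes rose against LAB and 0 fell. The risers were both ferric reductases (FRE1 and FRE2) and 3 of the 4 siderophore transporters (SIT1, ENB1 and ARN2), by 1.73 to 3.66-fold. The ferroxidase and permease pair FET3 and FTR1, the transporter ARN1 and the mannoproteins FIT2 and FIT3 did not pass the test. The share of 5 in 10 called higher stands against 18.9% of all genes, and the median log2 change of the 10 was 0.51 against 0.00. Against the mean of the 4 MED15 strains, a comparison that shares the deletion and LAB libraries with the first, 6 rose and 0 fell, with 25.6% of all genes called higher and 24.3% lower. In the same 6 genes both deletion libraries lay above all 8 MED15 libraries, as they did in 26.6% of all genes. Both deletion libraries lay below all 8 in 0 of the 10, against 25.3% of all genes.

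**Figure D2:**
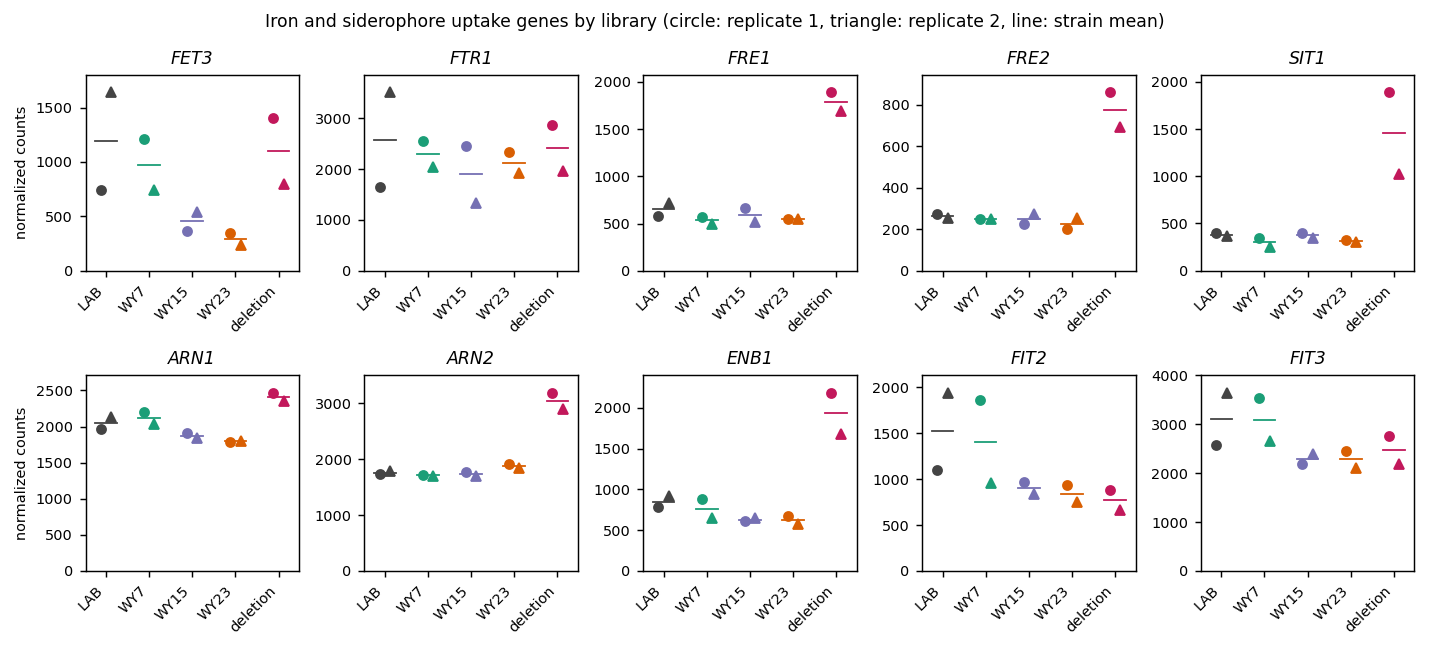
Normalized counts of the 10 genes in each library, with replicate 1 as circles, replicate 2 as triangles and the strain mean as a line; each panel has its own axis from 0. The deletion libraries stand above all MED15 libraries for FRE1, FRE2, SIT1, ARN1, ARN2 and ENB1, and within their range or below most of them for the others.

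FRE1 encodes the main surface reductase for ferric iron, which also reduces copper. It was at 579 and 721 (LAB), 571 and 494 (WY7), 667 and 515 (WY15), 549 and 549 (WY23), and 1890 and 1695 (deletion) normalized counts. The deletion libraries stood well clear of the 8 others, which differ by at most 1.46-fold among themselves. The log2 change from LAB was 1.47 (SE 0.16), a 2.77-fold rise, with a limma adjusted p of 0.00041. FRE2 encodes a second surface reductase for ferric iron. It was at 273 and 254 (LAB), 248 and 251 (WY7), 223 and 274 (WY15), 199 and 254 (WY23), and 859 and 693 (deletion) normalized counts. Again the groups did not overlap, and the MED15 libraries spanned 1.38-fold. FRE2 rose 2.92-fold over LAB, a log2 change of 1.55 (SE 0.17, limma adjusted p of 0.00043). Its closest copy in the genome, FRE3, is 77.5% identical over 2114 bases, and FRE3 did not move with it: it was at 1462 and 2648 (LAB) against 1418 and 1273 (deletion) normalized counts, a log2 difference of -0.55 (limma adjusted p of 0.1).

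FET3 and FTR1, whose products work as 1 complex, did not follow the reductases. FET3 was at 744 and 1640 (LAB), 1213 and 739 (WY7), 369 and 540 (WY15), 344 and 240 (WY23), and 1404 and 797 (deletion) normalized counts. The deletion values fell inside the range of LAB, and the 8 MED15 libraries spanned 6.83-fold, the widest range among the 10 genes. The log2 difference between deletion and LAB was -0.06 (SE 0.44), with a limma adjusted p of 0.92. FTR1 was at 1644 and 3515 (LAB), 2553 and 2052 (WY7), 2456 and 1341 (WY15), 2334 and 1917 (WY23), and 2869 and 1962 (deletion) normalized counts. Here too the deletion lay between the LAB libraries, with a log2 difference of -0.02 (SE 0.40, limma adjusted p of 0.97). For both genes the sign of the difference depends on the libraries and the scaling. Without LAB replicate 2 the log2 difference was 0.51 for FET3 and 0.53 for FTR1, and without deletion replicate 2 it was 0.35 and 0.25. With equal sums it was 0.30 and 0.34, and neither gene passed the test. Against the mean of the 4 MED15 strains the log2 difference of FET3 was 0.80 (SE 0.35, limma adjusted p of 0.089), and without LAB replicate 2 it was 0.95 and passed with a limma adjusted p of 0.032. With standard errors of 0.40 and 0.44, these libraries bound the differences of FTR1 and FET3 from LAB only loosely.

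All 4 siderophore transporters were above every MED15 library in the deletion. SIT1 moved most of the 10 genes. It was at 396 and 362 (LAB), 349 and 251 (WY7), 399 and 349 (WY15), 320 and 304 (WY23), and 1888 and 1019 (deletion) normalized counts. The 2 deletion libraries are 1.85-fold apart, and the lower of them is still above the highest MED15 library. SIT1 rose 3.66-fold over LAB, a log2 change of 1.87 (SE 0.27, limma adjusted p of 0.0014). ENB1 was at 780 and 921 (LAB), 880 and 644 (WY7), 614 and 648 (WY15), 669 and 577 (WY23), and 2186 and 1681 (deletion) normalized counts. It rose 2.26-fold over LAB, a log2 change of 1.18 (SE 0.18, limma adjusted p of 0.002).

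ARN2 and ARN1 were the steadiest of the 10 genes among the MED15 strains. ARN2 was at 1736 and 1786 (LAB), 1721 and 1700 (WY7), 1777 and 1708 (WY15), 1911 and 1835 (WY23), and 3190 and 2896 (deletion) normalized counts. Its 8 MED15 libraries spanned 1.12-fold, and it rose 1.73-fold over LAB, a log2 change of 0.79 (SE 0.08, limma adjusted p of 0.00034). ARN1 was at 1973 and 2138 (LAB), 2196 and 2033 (WY7), 1906 and 1836 (WY15), 1791 and 1804 (WY23), and 2470 and 2348 (deletion) normalized counts. The groups do not overlap, but the step is small: the log2 difference from LAB was 0.23 (SE 0.08) and did not pass, with a limma adjusted p of 0.064. Against the mean of the 4 MED15 strains ARN1 rose by 0.30 on the log2 scale (SE 0.07, limma adjusted p of 0.0062), a call that is lost without deletion replicate 1 (log2 0.26, adjusted p of 0.064). ARN1 passed against LAB with libraries scaled to equal sums (log2 0.59, adjusted p of 0.0012), after quantile normalization (0.27, adjusted p of 0.032) and by DESeq2 (0.23, adjusted p of 0.04).

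The mannoproteins FIT2 and FIT3 did not pass in either comparison with the deletion. FIT2 was at 1101 and 1940 (LAB), 1856 and 958 (WY7), 963 and 839 (WY15), 932 and 753 (WY23), and 886 and 666 (deletion) normalized counts. Both deletion libraries were below both LAB libraries but overlapped WY15 and WY23. The log2 difference from LAB was -0.93 (SE 0.35, limma adjusted p of 0.07), and it passed without LAB replicate 1 (-1.33, adjusted p of 0.035), after quantile normalization (-1.17, adjusted p of 0.028) and by DESeq2 (-0.97, adjusted p of 0.017). FIT3 was at 2574 and 3645 (LAB), 3543 and 2649 (WY7), 2186 and 2395 (WY15), 2454 and 2115 (WY23), and 2761 and 2182 (deletion) normalized counts. The deletion lies within the range of the other libraries, with a log2 difference from LAB of -0.32 (SE 0.21, limma adjusted p of 0.26) that turns to 0.04 with equal sums. FIT1, the third gene of this family, whose sequence is 74.0% identical to FIT3 over 404 bases, was at 356 and 396 (LAB) against 481 and 442 (deletion) normalized counts, a log2 difference of 0.30 (limma adjusted p of 0.26). FIT1 passed against the mean of the 4 MED15 strains (0.51, adjusted p of 0.024) and, against LAB, with equal sums (0.66, adjusted p of 0.027), but was at -0.16 after quantile normalization.

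**Figure D3:**
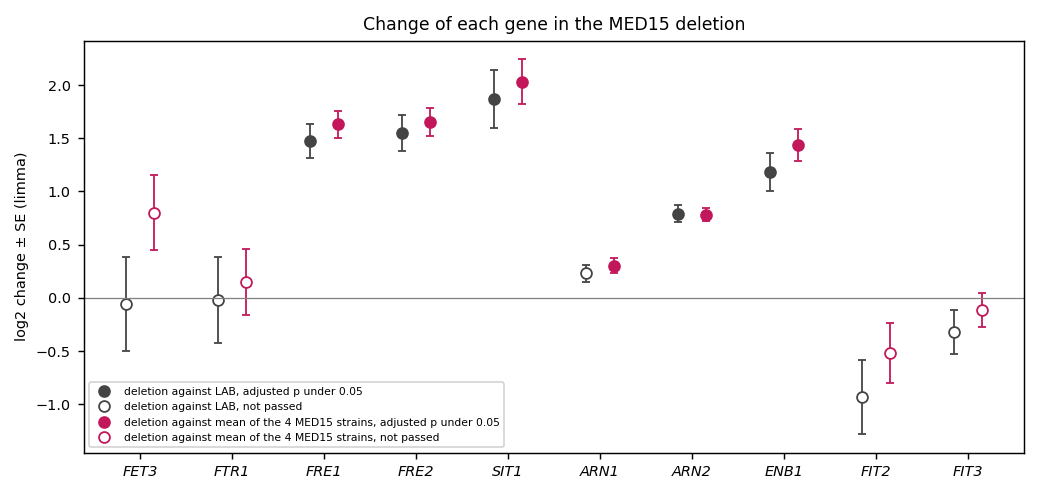
Log2 change of each gene in the deletion, with SE from limma, with LAB (grey) or the mean of the 4 MED15 strains (red) as the reference; filled points have an adjusted p under 0.05. FRE1, FRE2, SIT1, ARN2 and ENB1 pass in both comparisons and ARN1 in the second, while FET3 and FTR1 have the widest errors.

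The 5 genes that rose against LAB kept that call under all 20 alternatives tried for each, with log2 changes of 1.43 to 2.32 for SIT1, 1.24 to 1.90 for FRE2, 1.31 to 1.83 for FRE1, 0.99 to 1.54 for ENB1 and 0.72 to 1.15 for ARN2. The largest adjusted p among these values was 0.017. Against the mean of the 4 MED15 strains the log2 changes were 2.03 (SE 0.21) for SIT1, 1.65 (SE 0.13) for FRE2, 1.63 (SE 0.13) for FRE1, 1.44 (SE 0.15) for ENB1 and 0.78 (SE 0.06) for ARN2.

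None of the 10 genes passed in any comparison among the MED15 alleles by limma, where 0% of all genes were called in each of the 8 comparisons. At an unadjusted p under 0.05, limma gave 285 genes for WY7, 350 for WY15 and 560 for WY23 against LAB, 300 for their mean, 711 for WY7 against WY15, 320 for WY7 against WY23, 408 for WY15 against WY23 and 491 for any difference among the 4 strains. By edgeR 0 genes were called in these comparisons, with 483 at an unadjusted p under 0.05 for any difference. DESeq2 called 8, 6 and 55 genes for WY7, WY15 and WY23 against LAB, 9 for their mean, 155, 11 and 47 for the pairs in the order above, and 157 (2.59%) for any difference. FET3 was the uptake gene among them, in the test of any difference (adjusted p of 0.001) and for WY7 against WY23 (adjusted p of 0.03, where DESeq2 called 0.181% of genes). DESeq2 gave no adjusted p to any of the 10 genes for WY15 against WY23. The same held for WY23 and for the averaged WY alleles, each set beside LAB. For WY15 against LAB, DESeq2 gave none to 6 of the 10 genes, FET3 among these. The unadjusted DESeq2 p of FET3 relative to LAB was 2.3e-06 in WY23, 0.00038 in the averaged WY alleles and 0.0011 in WY15. It was 0.5 for WY7 against LAB and 0.14 for WY15 against WY23. The default filtering of DESeq2 was kept. Where it gave no adjusted p, no call could be made, which differs from a test that was not passed.

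FET3 had the widest spread of strain means among the alleles, 1.94 on the log2 scale, where the other 9 genes reached at most 0.80. Its log2 difference from LAB was -0.22 in WY7, -1.31 in WY15 and -1.94 in WY23, the last a 3.84-fold lower level with a limma adjusted p of 0.53. WY7 was above WY15 by 1.08 and above WY23 by 1.72 on the log2 scale, with limma adjusted p of 0.4 and 0.86. The FET3 values of the LAB libraries are themselves 2.20-fold apart. In the limma test of any difference among the 4 strains FET3 had an adjusted p of 0.52. The other 9 genes differed from LAB by -0.35 to 0.04 in WY7, -0.70 to -0.02 in WY15 and -0.80 to 0.09 in WY23 on the log2 scale.

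Libraries of the WY alleles and LAB were also counted gene by gene, without a test. Both WY23 libraries were below both LAB libraries in 8 of the 10, all but FTR1 and ARN2, against 24.3% of all genes, although for FRE2 the groups meet at 254 normalized counts after rounding. ARN2 was above LAB in both WY23 libraries, against 22.8% of all genes. WY15 lay below LAB in 5 genes (FET3, ARN1, ENB1, FIT2 and FIT3), against 14.9% of all genes, and above in 0, against 13.5%. WY7 lay below LAB in 4 genes (FRE1, FRE2, SIT1 and ARN2), against 15.4% of all genes, and above in 0, against 15.6%. The 3 counts share the LAB libraries, so they are not separate pieces of evidence.

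In 4 of the 5 strains, all but WY15, the median uptake gene differed more between replicates than the median gene did. In LAB, replicate 2 was above replicate 1 by 2.20-fold for FET3, 2.14-fold for FTR1 and 1.76-fold for FIT2, and only 1.85%, 2.13% and 4.72% of all genes were as far apart. FET3 and FTR1 were the uptake genes more than 2-fold apart in LAB, where 2.59% of all genes were, and no other strain had any. In WY7, replicate 1 was the higher, by 1.64-fold for FET3 and 1.94-fold for FIT2, where 3.73% and 2% of genes were as far apart. In the deletion, replicate 1 was higher by 1.76-fold for FET3 and 1.85-fold for SIT1. The median gene differed within a strain by 0.08 to 0.20 on the log2 scale, and the median uptake gene by 0.20 to 0.37.

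Levels were higher in LAB replicate 2, WY7 replicate 1 and deletion replicate 1 than in the other library of the strain for 8 of the 10 uptake genes (all but FRE2 and SIT1), for 7 of 18 other genes of the iron regulon (38.9%) and for 21.4% of all genes tested. The 7 are FIT1, FRE4, FET5, FTH1, HMX1, TIS11 and MRS4, and the pattern was chosen after the values were seen. MRS4, a carrier that brings iron into mitochondria, was at 4039 and 6436 normalized counts (LAB), 6561 and 3557 (WY7), and 1977 and 999 (deletion). TIS11, which binds messenger RNAs of iron-using proteins and speeds their decay, was at 780 and 1199 in LAB, 1080 and 614 in WY7, and 980 and 528 in the deletion. HMX1, a heme oxygenase, was at 974 and 1189 in LAB, 1091 and 471 in WY7, and 1436 and 614 in the deletion. FRE5, a neighbour of FIT3, was higher in replicate 2 of LAB by 3.14-fold, and in replicate 1 of WY7, WY15 and WY23, while its deletion libraries were close, at 179 and 201.

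Genes of low oxygen also differed between replicates. The 11 markers summed to 104588 and 243616 (LAB), 185859 and 256881 (WY7), 213184 and 75251 (WY15), 241815 and 252295 (WY23), and 80026 and 103934 (deletion) normalized counts, with 0 markers at 0 in any library. OLE1 makes up most of each sum. Without it the sums were 26813 and 40007 (LAB), 31842 and 39908 (WY7), 47639 and 25566 (WY15), 40048 and 41276 (WY23), and 21898 and 25935 (deletion). In the deletion against LAB, AAC3 and DAN4 rose by 2.19 and 0.72 on the log2 scale and COX5B fell by 1.17. The other 8 markers did not pass. DAN1, a cell wall gene of anaerobic cells, was at 423 and 3020 in LAB and at 6054 and 233 in WY15. The replicate with more of these markers was the one with more FET3 in LAB and the one with less in each of the other 4 strains. Their part in the iron gene values was not tested.

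**Figure D4:**
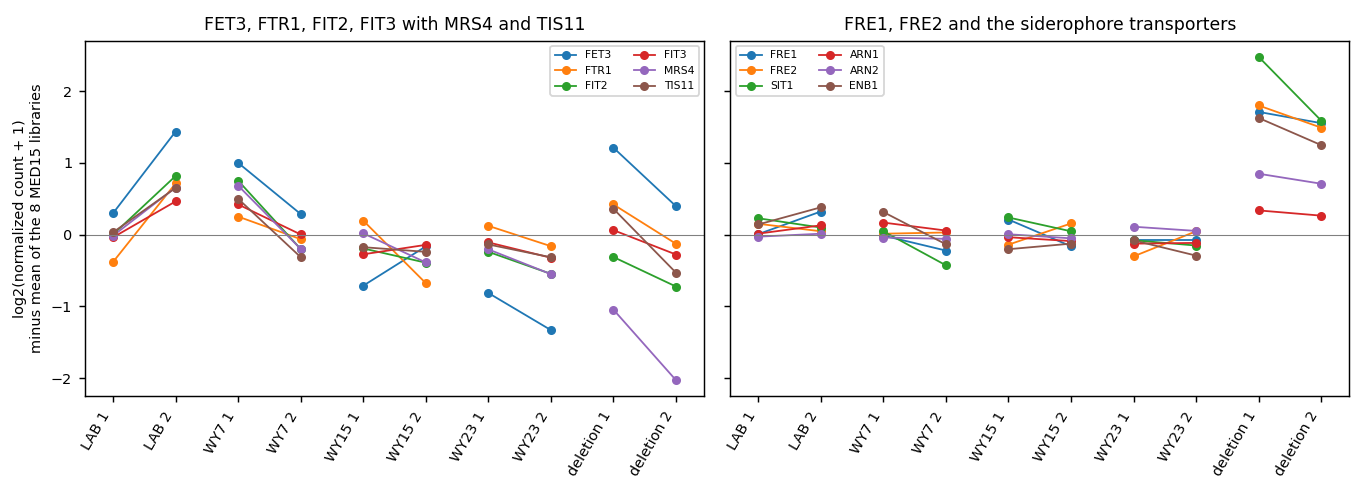
Log2(normalized count + 1) minus the mean of the 8 MED15 libraries, with the replicates of a strain joined. Left, FET3, FTR1, FIT2 and FIT3 with MRS4 and TIS11 are higher in LAB replicate 2, WY7 replicate 1 and deletion replicate 1 than in the other library. Right, FRE1, FRE2 and the siderophore transporters span 1.12 to 1.60-fold across the MED15 libraries, against 1.72-fold for FIT3 and 6.83-fold for FET3. They step up in the deletion, though the step of ARN1 is small and did not pass against LAB. FRE1, ARN1, ARN2 and ENB1 share the order of replicates seen on the left.

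Over the 8 MED15 libraries, the level of each gene was compared with the mean of the other 9 as a description, since the libraries share strains and scaling. Pearson's r was 0.98 for FIT2, 0.95 for ENB1, 0.94 for FIT3, 0.89 for ARN1 and 0.84 for FET3. It was 0.56 for FTR1 and FRE1, 0.24 for SIT1, 0.13 for FRE2 and -0.29 for ARN2. Of 5122 other named genes, those most like the mean of the 10 uptake genes over these libraries were ATO2 (r of 0.99), then AQY3, ATP10, MEK1 and PRS2 (0.98 each). ATO2, for example, was at 4652 and 6649 (LAB), 5968 and 3975 (WY7), 4320 and 3965 (WY15) and 3723 and 3374 (WY23) normalized counts.

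Levels can be compared between genes only per length. In normalized counts per kilobase of coding sequence, the means over the 8 MED15 libraries were 4383 for FIT3, 2528 for FIT2, 1833 for FTR1, 1040 for ARN1, 951 for ARN2, 393 for ENB1, 381 for FET3, 282 for FRE1, 181 for SIT1 and 116 for FRE2. In this order the ranges of neighbours overlap except between ARN2 and ENB1, between FRE1 and SIT1 and between SIT1 and FRE2. On this scale the permease gene FTR1 was above its partner FET3, which ranged from 126 to 858. In the deletion the means per kilobase were 1062 for ENB1, 870 for FRE1, 770 for SIT1 and 363 for FRE2, all under the 1633 of ARN2 and the 4018 of FIT3.

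Of all genes 18.9% were called higher and 17.7% lower in the deletion against LAB, the shares to set beside the main counts of the lists below. With equal sums 2877 of all genes were called higher and 425 lower, where the main scaling gave 1147 and 1072. The median of all genes was then 0.36. Counts and medians of a list with equal sums are to be set beside these. Of 18 other genes of the iron regulon, 5 rose in the deletion against LAB, 2 fell and 11 did not pass, with a median log2 change of 0.03 against 0.00 for all genes. The count of higher genes was 3 without LAB replicate 1 or deletion replicate 2 and 2 without deletion replicate 1, that of lower genes was 1 without LAB replicate 2 or deletion replicate 2, and equal sums gave 9 higher and 2 lower. FRE4, another reductase gene, was at 378 and 574 (LAB) against 1417 and 1137 (deletion) normalized counts, a log2 change of 1.45 (SE 0.24, limma adjusted p of 0.0027). SMF3, which exports iron from the vacuole, rose by 0.63 (adjusted p of 0.0012), CCC2, the pump that loads copper into Fet3, by 0.51 (adjusted p of 0.022), and COT1, a vacuolar metal transporter, by 0.38 (adjusted p of 0.025) on the log2 scale. The small gene LSO1 rose by 1.54 (adjusted p of 0.017), from 8.23 and 14.1 to 32.4 and 34.2 normalized counts, and lost its call after quantile normalization (adjusted p of 0.083). MRS4 fell by 1.86 (SE 0.40, adjusted p of 0.0081), so that both deletion libraries were below all 8 others. ISU1, the scaffold on which iron-sulfur clusters are built, fell by 0.73 (adjusted p of 0.0015). FRE5 did not pass against LAB, with a log2 difference of 1.55 (SE 0.69, adjusted p of 0.11), but did with equal sums (1.91, adjusted p of 0.039). With the mean of the 4 MED15 strains as the reference FRE5 rose by 2.54 (SE 0.55, adjusted p of 0.0056). Both deletion libraries of FRE5 were above the 9.78 to 114 normalized counts of the other 8. Of the abundant genes that did not pass, FRE6 was at 5097 and 4554 (LAB) against 4987 and 4273 (deletion) normalized counts, and the biotin transporter gene VHT1 at 17934 and 16629 and at 24930 and 20339. VHT1 was at a log2 difference of 0.38 (adjusted p of 0.16) but passed after quantile normalization (1.19, adjusted p of 0.0028) and with equal sums (0.74, adjusted p of 0.01). The core GCACCC stood in 11 of these 18 promoters (61.1%), MRS4 and LSO1 among them, and not in FRE4, SMF3 or COT1.

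Among 9 regulators of iron genes, 2 rose, 1 fell and 6 did not pass, with a median log2 change of 0.07; with equal sums 5 were higher and 0 lower, with a median of 0.43. AFT1 itself was at 2507 and 2550 (LAB) against 3333 and 3466 (deletion) normalized counts, a log2 change of 0.43 (SE 0.10, limma adjusted p of 0.012). GRX3, a glutaredoxin that takes part in signalling iron status to Aft1, rose by 0.41 (adjusted p of 0.013), and YAP5, the activator used at high iron, fell by 0.43 (adjusted p of 0.0063) but by 0.07 without a call when libraries had equal sums. Both calls of higher genes are lost without deletion replicate 2, and 1 of them without LAB replicate 1 or deletion replicate 1. AFT2, at 4907 and 4692 in LAB and 4076 and 4336 in the deletion, did not pass (log2 -0.19, adjusted p of 0.23). Nor did GRX4 (log2 0.54, adjusted p of 0.065), FRA1 (-0.23, adjusted p of 0.17), BOL2 (0.07, adjusted p of 0.51) or CTH1 (0.13, adjusted p of 0.26), and TIS11 was at -0.43 (adjusted p of 0.37).

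Of 8 genes of low-affinity, vacuolar and mitochondrial iron transport, 2 rose, 2 fell and 4 did not pass, and with equal sums 3 were higher and 0 lower. FRE7, a reductase gene controlled by copper, was at 38.4 and 58.4 (LAB) against 207 and 164 (deletion) normalized counts, a log2 change of 1.94 (SE 0.36, limma adjusted p of 0.0044). SMF1, a manganese transporter gene, rose by 0.48 (adjusted p of 0.022). CCC1, which stores iron in the vacuole, fell by 0.46 (adjusted p of 0.0051), and GGC1, a mitochondrial carrier whose loss upsets iron balance, fell by 0.52 (adjusted p of 0.038). With equal sums neither of these falls passed, at -0.10 and -0.16, and GGC1 did not pass after quantile normalization (adjusted p of 0.094). FET4, the low-affinity iron transporter gene, was at 5367 and 7452 in LAB and at 6241 and 6048 in the deletion (log2 -0.04, adjusted p of 0.86), and SMF2, MRS3 and FRE8 were at 0.00, -0.09 and 0.07. The higher count was 1 without LAB replicate 2 or either deletion replicate, and the lower count was 1 without LAB replicate 1 or any single WY7, WY23 or deletion library.

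Of 20 genes of iron-sulfur cluster assembly, 1 rose against LAB, 5 fell and 14 did not pass, while 1 rose and 11 fell against the mean of the 4 MED15 strains. Against that mean 24.3% of all genes were called lower. The 11 falls ran from -0.20 (CIA1) to -0.83 (ISU1) on the log2 scale. With equal sums 496 of all genes were called lower against that mean, where the main scaling gave 1473. How many of the 11 keep their call under other scalings or with libraries left out was not counted. The count of lower genes against LAB was 2 without LAB replicate 1, either WY23 replicate or deletion replicate 1, and 3 without LAB replicate 2, either WY7 replicate or deletion replicate 2. The median log2 change against LAB was -0.20, and with equal sums it turned to 0.16, with 5 higher and 1 lower. Besides ISU1, ISA1 fell by 0.60 (adjusted p of 0.0014) and YAH1, a ferredoxin, by 0.47 (adjusted p of 0.029), and with equal sums neither passed (-0.24, adjusted p of 0.063, and -0.11, adjusted p of 0.5). ISD11 fell by 0.31 (adjusted p of 0.046), and lost its call after quantile normalization (adjusted p of 0.1) and at 0.05 with equal sums. DRE2 fell by 0.39 (adjusted p of 0.043), but was at 0.05 after quantile normalization and at -0.03 with equal sums, without a call in either. IBA57 was the member that rose, by 0.42 (adjusted p of 0.015).

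Copper and zinc genes were read beside them, since Fet3 needs copper. Of 10 copper genes 4 rose and 3 fell, with a median of 0.05, and with equal sums 6 were higher and 2 lower, with a median of 0.41. The copper transporter CTR3 was at 168 and 240 (LAB) against 532 and 431 (deletion) normalized counts, a log2 change of 1.25 (SE 0.22, limma adjusted p of 0.0037). CTR1, the main copper transporter, rose by 0.83 (adjusted p of 0.0035), and FRE7 and CCC2 are the others that rose. SOD1, the copper and zinc superoxide dismutase, fell by 1.05 (adjusted p of 0.00047), CUP2, the activator of metallothionein genes, by 0.70 (adjusted p of 0.00092) and CCS1, which loads copper into Sod1, by 0.51 (adjusted p of 0.027), the last without a call at equal sums (-0.15). MAC1, the activator of copper uptake genes, was at 4885 and 4509 in LAB and at 4810 and 4661 in the deletion (log2 0.01, adjusted p of 0.94). Of 7 zinc genes 3 rose and 0 fell, with a median of 0.31, 1 rose without deletion replicate 1, and with equal sums 6 were higher, with a median of 0.67. ZPS1, a cell surface protein gene of zinc-starved cells, was at 293 and 301 in LAB and at 1353 and 1023 in the deletion, a log2 change of 1.98 (SE 0.20, adjusted p of 0.00029). ADH4 rose by 0.41 (adjusted p of 0.015) and ZRC1 by 0.31 (adjusted p of 0.041), while the zinc transporter gene ZRT1 (log2 -0.44, adjusted p of 0.23, and 0.26 after quantile normalization) and ZRT2, ZRT3 and the activator ZAP1 (0.02, 0.16 and 0.37) did not pass.

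**Figure D5:**
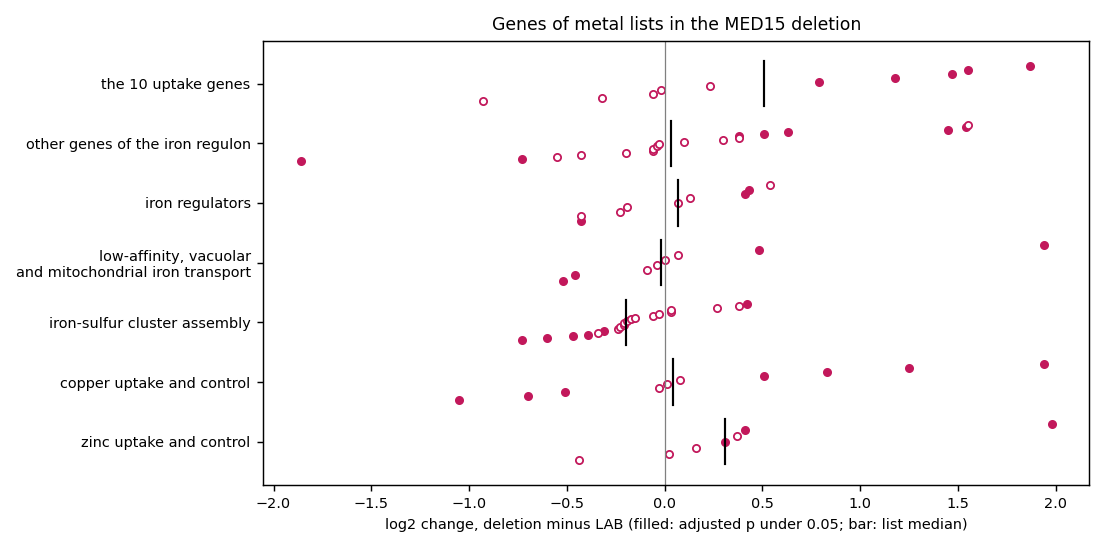
Log2 change against LAB of each gene in the 10 uptake genes and 6 other lists, filled where the adjusted p is under 0.05, with a bar at the median of each list. The 10 uptake genes have a median of 0.51, the zinc genes 0.31, and the other lists lie between -0.20 and 0.07, with genes on both sides of 0.

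The 10 genes lie on 6 chromosomes, and 7 of them are within 35 kb of a chromosome end, where 6.36% of the placed genes tested lie. The distances in R64 are 8.4 kb for ARN2 (chrVIII:8351-10213), 9.1 kb for FRE2 (chrXI:9091-11226), 19.1 kb for ARN1 (chrVIII:19088-20971), 19.5 kb for ENB1 (chrXV:19491-21311), 27.7 kb for SIT1 (chrV:27657-29543), 30.2 kb for FIT3 (chrXV:1060441-1061055) and 31.3 kb for FIT2 (chrXV:1059531-1059992). The others are FET3 (chrXIII:388822-390732), FTR1 (chrV:460526-461740) and FRE1 (chrXII:568567-570627), and each range spans the coding sequence. Of the 363 genes tested within 35 kb of an end, 31.1% were called higher and 16% lower in the deletion than in LAB, against 17.6% and 18.3% of the 5343 genes farther away. The 4 risers near an end are FRE2, SIT1, ENB1 and ARN2, while FRE1, far from any end, rose too and ARN1, FIT2 and FIT3, near an end, did not pass. The part of position in these changes was not tested. None of the 10 overlaps another RefSeq gene.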

How the data were processed

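Polyadenylated RNA was sequenced from 10 yeast libraries, 2 for each of 5 strains. Tools named in the submitters' processing notes are featureCounts, Bowtie2, Trim Galore and DESeq2, with builds sacCer3 and R64. Their versions, their settings and whether strand entered the counting: not given in the sources used here. The values the authors deposited are a signal per gene, read counts divided by 1 size factor per library, as found from the values: 100% of them are whole multiples of 1 step per library within 1e-06. The recovered reads gave the depth of 22.7 to 29.3 M reads and were used for edgeR 4.0.16 and DESeq2 1.42.0 as alternatives. All 10 columns were used, and 5917 of 6600 identifiers had a RefSeq name.

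The main test, limma (version 3.58.1, R 4.3.3), was run on log2(value + 1) over the 6065 genes with a mean of at least 10, which takes in all 10 uptake genes, with 5 group means, a variance trend, 3.05 prior and 5 residual degrees of freedom, two-sided. Fold changes on this scale are understated for low genes. P-values were adjusted by Benjamini-Hochberg over all genes, with a threshold of 0.05, in each of 10 comparisons. The members and lists were chosen with earlier results of these data known. Lists came from textbook knowledge and overlap: CCC2, FRE7, ISU1 and TIS11, for example, are each counted in several. All uptake genes are named whatever their values, metal lists of up to 9 genes are named in full, and longer lists by up to 6 largest calls and up to 4 abundant genes without a call. FRE3, FIT1, HMX1, TIS11, FRE5 and DAN1 are named besides, chosen after their values were seen. Promoter windows were cut from the R64 genome, and copies were sought with BLAST+ 2.17.0 over at least 150 aligned bases. The test was tried on simulated data. Alternatives were another pseudocount, no filter, 2 other scalings, edgeR, DESeq2, a smaller fit, a replicate block and leaving out libraries.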

Additional observations from a re-analysis of the deposited data

How the results depend on the processing

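The calls of FRE1, FRE2, SIT1, ENB1 and ARN2 against LAB held under each alternative. Counts of genes are more movable: the 2219 genes called against LAB became 1475 to 2502 with 1 library left out (fewest without deletion replicate 2), 1410 without LAB replicate 2 and WY7 replicate 1, 1659 with only the groups compared, 2241 by edgeR and 2520 by DESeq2. Equal sums gave 3302 calls, of which 87.1% were higher, against 51.7% in the main scaling. The uptake genes called against LAB numbered 7 by DESeq2 and after quantile normalization, where ARN1 was added as higher and FIT2 as lower. Quantile normalization gave 2379 calls among all genes. With equal sums they numbered 6, with ARN1 added as higher. Of all genes 2877 were then called higher and 425 lower, against 1147 and 1072 in the main scaling. For the deletion against the 4 other strains' mean the uptake genes called numbered 7 by DESeq2, after quantile normalization and with equal sums. Of all genes 3201, 3068 and 4177 were then called, in this order, against 3027 of 6065 in the main fit. DESeq2 and equal sums added FET3 as higher, and quantile normalization added FIT2 as lower. Leaving out 2 libraries together was chosen after seeing the data. Among alleles, any difference was called for 0 genes by limma and for 157 genes by DESeq2. DESeq2 called 1 uptake gene there and 1 for WY7 against WY23, FET3 each time. It gave FET3 no adjusted p for WY15 or WY23 against LAB, so no call could be made there. The limma result depends on the libraries used. Without LAB replicate 1 and WY15 replicate 2, genes were called for any difference, and more of them for WY7 against WY15. That fit leaves 1 library in LAB and 1 in WY15.

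Among the 10 uptake genes, the signs that turned were of log2 differences without a call; of the other lists, DRE2 and ISD11 turned although called. FET3 against LAB was 0.30 with equal sums, -0.63 to 0.51 with 1 library left out (0.35 without deletion replicate 2) and 0.51 without LAB replicate 2 and WY7 replicate 1. FTR1 against LAB was 0.02 after quantile normalization, 0.34 with equal sums, -0.57 to 0.53 with 1 library left out and 0.53 without that pair. FIT3 against LAB was 0.04 with equal sums. Against the mean of the MED15 strains FTR1 was -0.13 to 0.42 with 1 library left out and -0.10 without LAB replicate 1 and WY15 replicate 2, and FIT3 was 0.30 with equal sums, -0.28 to 0.06 with 1 library left out and 0.01 without LAB replicate 2 and WY7 replicate 1. FET3 in WY7 against LAB was -0.79 to 0.35 with 1 library left out. The cause was not tested. FET3 against the mean of the MED15 strains also passed with equal sums (1.21) and by DESeq2 (0.82), and FIT2 after quantile normalization (-0.79).

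With a replicate block 2051 genes and 5 uptake genes were called against LAB, with 2888 and 6 for the other comparison of the deletion. The 10 correlations of replicate differences between strains ran from -0.5 to 0.41, so the numbers do not pair the samples across all 5 strains. The 3 that exceed 0.1 lie among WY7, WY23 and the deletion. They were 0.41 (WY7 and deletion), 0.27 (WY7 and WY23) and 0.26 (WY23 and deletion). Whether the numbers pair samples within these 3 strains was not tested. In the allele comparisons the alternatives for single genes were run for FET3, and for all 10 genes in the test of any difference. With 2 libraries a strain the spread is poorly known, and a miss does not show that levels are alike.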
